A study of Homo sapiens with 2 samples.

Results

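Serum response factor and the cofactors that choose its targets were followed here through 7 genes: the coactivator genes MYOCD, MKL1 and MKL2, SRF itself, and the ternary complex factor genes ELK1, ELK3 and ELK4. The genes were taken by symbol from a table of 56255 gene symbols, and each stood on 1 row. They were measured in 2 RNA-seq libraries of A549, an established human lung adenocarcinoma cell line grown in DMEM with serum. One library came from wild-type cells without treatment (WT) and the other from cells overexpressing MYOCD (MYOCD), so the comparison asks what raised myocardin expression does to the transcriptome of these cells. The sources used here do not state the vector, its promoter, the form of MYOCD it carries or whether the cells were a clone or a pool.

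SRF is a MADS-box transcription factor that binds DNA at the CArG box. Its partners fall into a pair of families that contact the same surface of SRF and so compete for it. Myocardin and its relatives MRTF-A and MRTF-B (encoded by MKL1 and MKL2) drive genes of muscle and of the actin cytoskeleton. The MRTF proteins are held in the cytoplasm by monomeric actin and are released when actin polymerises, while myocardin is nuclear without such a signal. The ternary complex factors are ETS proteins that bind DNA beside SRF and switch on immediate early genes once ERK and related kinases phosphorylate them.

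Of the 7 genes only SRF had a CArG box in the promoter windows examined, and its promoter is shown because SRF is both the partner of myocardin and a gene with its own binding motif. Windows were the 250 bases before each transcription start listed by RefSeq on GRCh38.p14. There were 13 such windows for 6 of the genes. MYOCD had no entry. The search took only exact matches to CC, then 6 bases that are A or T, then GG. A site with a mismatch was entered as no box. This 10-base motif reads as a CArG box on both strands, so 1 scan covered both. The SRF window below lies at chr6:43171019-43171268 on the plus strand, is printed 5′ to 3′, and has its boxes in capitals.
SRF: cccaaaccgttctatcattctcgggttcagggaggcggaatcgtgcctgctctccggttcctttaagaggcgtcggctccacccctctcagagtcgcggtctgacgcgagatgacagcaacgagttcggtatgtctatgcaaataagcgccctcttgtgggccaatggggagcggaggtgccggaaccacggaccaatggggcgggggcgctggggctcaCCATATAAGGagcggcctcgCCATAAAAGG

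The first box, CCATATAAGG, covers bases 30 to 21 before the RefSeq start, and the second, CCATAAAAGG, bases 10 to 1 before it. GENCODE places the start of SRF further downstream, at chr6:43171299, so both boxes lie further from that start. The boxes do not overlap. Among all 35116 windows of the same length, 1.16% held at least 1 CArG box and 0.0313% held 2 or more. The second SRF start, further into the gene, had none in its window, and neither did the windows of MKL1, MKL2, ELK1, ELK3 and ELK4. The ETS core GGAA, counted on both strands (GGAA or TTCC), was found 3 times in the printed SRF window, at a gap of 34 bases or more from the nearest box, and between 1 and 6 times in the windows of the other genes. These matches describe letters in a window and not binding.

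Expression values are RPKM, reads per kilobase of gene scaled to library size, as deposited. The sources used here do not state the gene lengths used. Orders, shares and ratios between different genes therefore depend on lengths that are unknown. Each group has 1 library, so no value has an error and no test was possible. Changes are given as the ratio of the deposited values and as log2((MYOCD RPKM + 0.5)/(WT RPKM + 0.5)), which understates changes of genes with low values. A gene was counted if it reached 1 RPKM in a library and was called if it lay at or beyond 2-fold on that scale, a rule of size. The libraries summed to 886700 and 880876 RPKM, and their sequencing depth is unknown. In bulk RNA, fewer cells that express a gene and less RNA per cell cannot be told apart.

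The labelled identity was checked against markers. Of the 6 epithelial markers all were counted, with summed levels of 4205 RPKM in WT against 3620 in MYOCD. By log2 change 4 of them lay above 0, while KRT8 and KRT18 lay below. EPCAM (0.889 and 2.57 RPKM) and KRT19 (2.94 and 3.24 RPKM) stood low, and EPCAM was called higher, with a log2 change of 1.15. Of the 6 alveolar type II markers 5 were under 1 RPKM in both libraries, SFTPC and SFTPA2 were at 0, and the sum was 0.574 and 1.16 RPKM. Markers of other cells were low. Smooth muscle markers (6) summed to 3.598 and 3.13 RPKM, cardiac markers (6) to 1.88 and 0.973, fibroblast markers (5) to 0.732 and 0.564, endothelial markers (4) to 0.00689 and 0.139 and blood markers (5) to 0.460 and 1.18. Of these, MYH6, MYH7, ACTN2, DCN, CDH5, VWF, KDR, PTPRC and CD3E were at 0 in both libraries. The smooth muscle markers had 2 genes counted, MYH11 (0.830 and 1.24 RPKM) above 0 and SYNPO2 (2.27 and 1.26) below. The 1 cardiac marker counted, TNNI3 (1.66 and 0.729 RPKM), lay below 0. The lower muscle sums in MYOCD thus rest mainly on SYNPO2 and TNNI3. Under 1 RPKM in both libraries, ACTG2, LMOD1 and NPPA were higher in MYOCD and CNN1, DES and TNNT2 lower.

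MYOCD was the 1 gene of the 7 called at or beyond 2-fold, and it was higher in the library labelled for its overexpression. Across all 17350 genes counted, 11.8% were called in either direction, 5.42% higher and 6.35% lower. Among the 12337 protein-coding genes counted the shares were 6.11%, 3.02% and 3.10%. The other 6 genes were all counted. They had log2 changes from -0.21 to 0.61 with a median of 0.22, against a median of -0.00 over all genes counted. Of these 6, 5 lay above 0 and 1 below, against 6225 above and 6112 below among protein-coding genes counted.

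**Figure D1:**
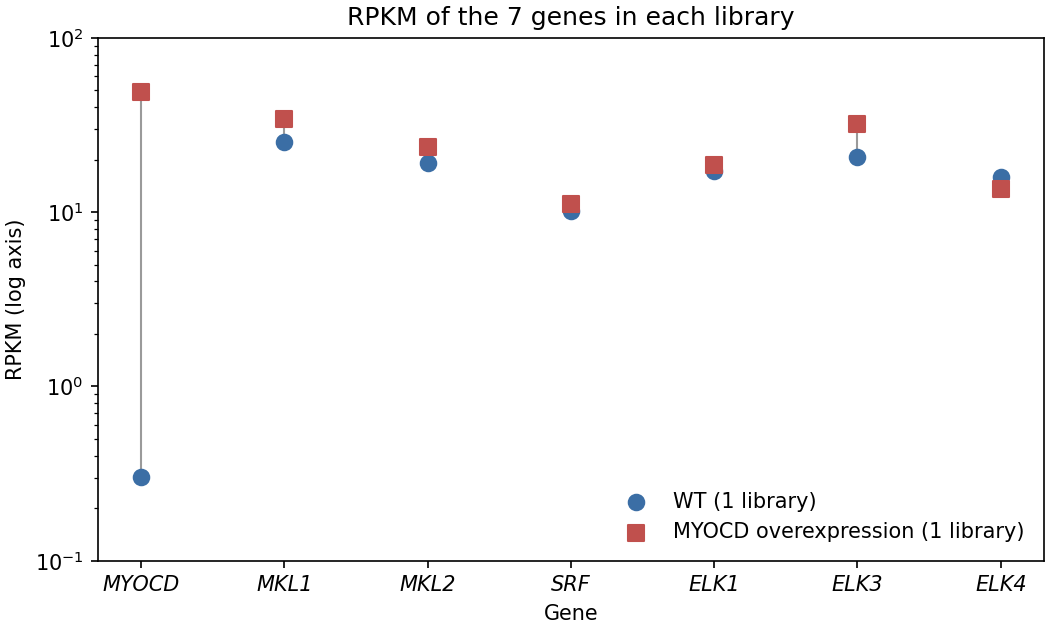
RPKM of each of the 7 genes (vertical log axis) in the WT library (circles) and the MYOCD library (squares), 1 library each, so no error bars are drawn. MYOCD runs from 0.304 to 48.6 RPKM, while the other 6 genes lie between 10.1 and 34.3 RPKM in both libraries.

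Among the coactivators, MYOCD (ENSG00000141052, chr17:12665890-12768949, plus strand, GRCh38), the muscle-restricted founder of the family, stood at 0.304 RPKM in WT against 48.6 in MYOCD, a log2 change of 5.93. This is the gene that the study overexpressed, so the value checks the labels. Its WT level lay below the filter, and 31.8% of the 19695 protein-coding genes of the table had a lower one. In the MYOCD library it ranked 2130 of 12337 protein-coding genes counted, above 82.7% of them. No other protein-coding gene counted had a log2 change as high. Over all gene types, 92 genes reached that value, MYOCD included. Reads of the introduced MYOCD and of the cell's own gene cannot be told apart in a sum per gene. The union of its GENCODE exons spans 8875 nt, of which the longest coding sequence takes 2958 nt, or 33.3%. RPKM divides by a model length, so a transcript without the untranslated part would be given too low a level, and the sources used here do not state the length the authors used.

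The locus around MYOCD gave a further view of the same library. The antisense gene RP11-1090M7.1 shares 704 nt of exon with MYOCD on the opposite strand, 7.93% of the MYOCD exons. It stood at 0.0702 RPKM in WT against 2.16 in MYOCD. The sources used here do not state whether counting used strand, so reads of the pair cannot be told apart. The other antisense gene, AC005358.3, shares no exon base with MYOCD and stood at 0 and 0.0750 RPKM. The nearest protein-coding genes on either side were both under 2-fold. MAP2K4, a kinase gene of the stress-activated JNK and p38 pathways 522060 bases before MYOCD, stood at 24.6 RPKM in WT against 23.3 in MYOCD. ARHGAP44, 20590 bases after it, stood at 2.86 and 3.48 RPKM.

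MKL1 (ENSG00000196588, chr22:40410281-40636702, minus strand) encodes MRTF-A. It stood at 25.3 RPKM in WT against 34.3 in MYOCD, a ratio of 1.35 and a log2 change of 0.43, and 13.8% of protein-coding genes counted had a log2 change at least as high. MKL2 (ENSG00000186260, chr16:14071321-14266773, plus strand) encodes MRTF-B. It stood at 19.2 and 23.7 RPKM, a ratio of 1.24 and a log2 change of 0.30, which 20.7% of protein-coding genes reached. Both relatives were therefore somewhat higher in MYOCD, and neither came near 2-fold. The ratio of MKL1 to MKL2 was 1.32 in WT against 1.44 in MYOCD, with MKL1 the higher in each. MKL1 shares 9 nt of exon with SGSM3 on the opposite strand, and MKL2 shares 132 nt with the pseudogene TVP23CP2 on its own strand, 0.796% of its exons.

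The makeup of the coactivator transcripts was different in the 2 libraries. In WT, MKL1 made up 56.5% of the summed RPKM of the 3 coactivator genes, MKL2 42.8% and MYOCD 0.678%. In the MYOCD library the shares were 32.1%, 22.3% and 45.6%. The sum stood at 44.8 RPKM in WT against 106.6 in MYOCD, a ratio of 2.38. Without MYOCD it was 44.5 and 58.0 RPKM, a ratio of 1.30. MYOCD was thus the most abundant of the 3 transcripts in the overexpressing library, at 1.42 times MKL1 and 2.05 times MKL2, while in WT it was at 0.0120 times MKL1.

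**Figure D2:**
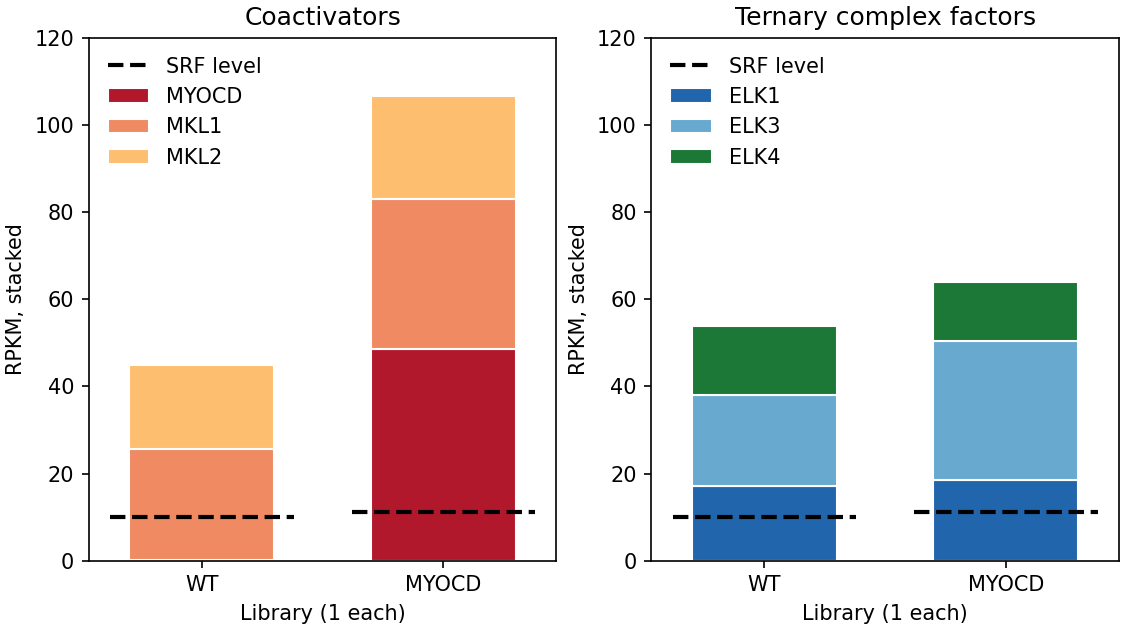
Stacked RPKM of the coactivator genes (left) and the ternary complex factor genes (right) in the WT and MYOCD libraries, 1 library each, with the SRF level of the same library as a dashed line. The coactivator stack stands at 44.8 and 106.6 RPKM, the ternary complex factor stack at 53.9 and 64.0 RPKM, and SRF at 10.1 and 11.2 RPKM.

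SRF (ENSG00000112658, chr6:43171299-43181507, plus strand in GENCODE) stood at 10.1 RPKM in WT against 11.2 in MYOCD. The ratio was 1.10 and the log2 change 0.14, a size reached in 1 direction or the other by 69.2% of protein-coding genes counted. The gene with 2 CArG boxes in the printed window thus lay near its WT level. SRF had the lowest level of the 7 genes in the MYOCD library and the second lowest in WT, above MYOCD. It shares no exon with another gene of the annotation. Coactivator transcripts exceeded SRF transcripts by 4.43 times in WT and 9.55 times in MYOCD, and MYOCD alone stood at 0.0300 and 4.36 times SRF. Among the MADS-box genes SRF ranked 3 in both libraries, behind MEF2D (24.5 and 28.0 RPKM), a muscle and neuronal regulator, and MEF2A (12.2 and 11.7). MEF2B and MEF2C were under 1 RPKM in both.

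All of the ternary complex factors were under 2-fold, with ELK3 and ELK1 above 0 and ELK4 below. ELK3 (ENSG00000111145, chr12:96194382-96269835, plus strand) encodes Net, a factor that represses transcription until it is phosphorylated. It stood at 20.8 RPKM in WT against 31.9 in MYOCD, a ratio of 1.53 and a log2 change of 0.61, the largest of the 6 genes beside MYOCD. Of protein-coding genes counted, 7.95% had a log2 change at least as high. ELK1 (ENSG00000126767, chrX:47635521-47650604, minus strand), the factor best known as an ERK substrate, stood at 17.2 and 18.5 RPKM, a ratio of 1.08. ELK4 (ENSG00000158711, chr1:205597556-205631962, minus strand), which encodes SAP-1, was the 1 gene of the 7 with a lower value in MYOCD, at 15.9 RPKM in WT against 13.6 in MYOCD, a log2 change of -0.21. For ELK4, 27.5% of protein-coding genes had a log2 change as low or lower.

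Within the ternary complex factors ELK3 held a larger share in MYOCD than in WT. Its share of their summed RPKM was 38.5% in WT and 49.8% in MYOCD. That of ELK1 was 32.0% and 28.96%, and that of ELK4 29.5% and 21.3%. The ratio of ELK3 to ELK4 stood at 1.31 in WT against 2.34 in MYOCD. Their sum relative to SRF was 5.33 in WT against 5.74 in MYOCD, and the coactivator sum was 0.832 times the ternary complex factor sum in WT and 1.67 times in MYOCD. ELK3 shares 209 nt of exon, 4.50% of its own, with the antisense gene RP11-394J1.2 (14.1 and 14.2 RPKM), and ELK4 shares 422 nt, 3.48%, with MFSD4A on the opposite strand (0.752 and 0.871 RPKM).

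**Figure D3:**
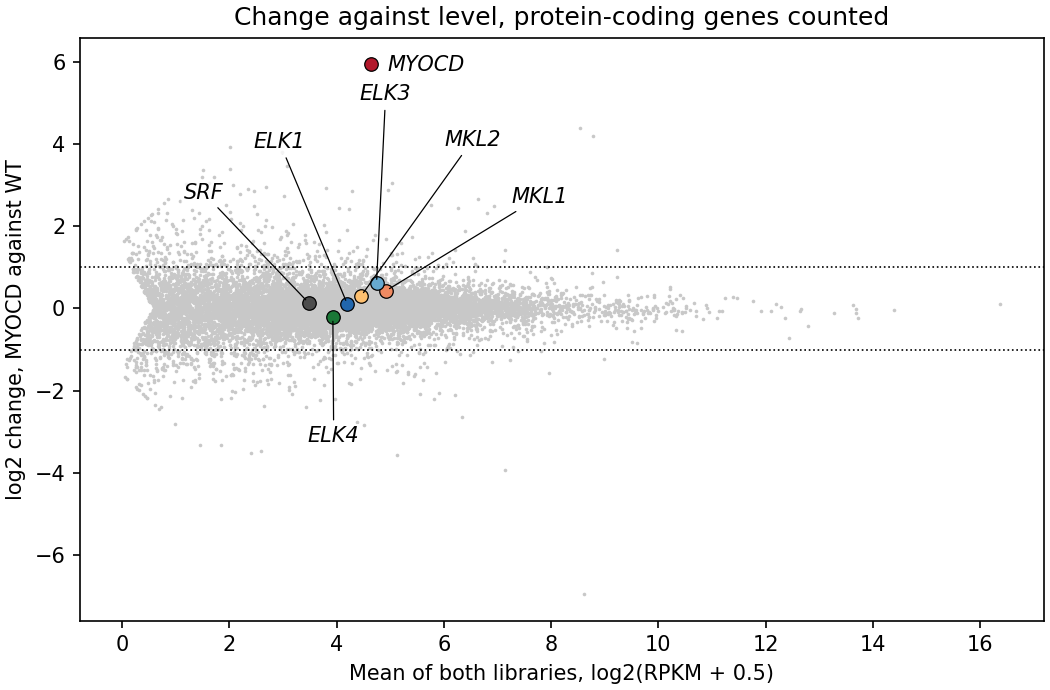
log2 change of MYOCD against WT (vertical axis, 0.5 RPKM added) by the mean level of the 2 libraries (horizontal axis, log2 of RPKM + 0.5) for 12337 protein-coding genes counted, in grey, with the 7 genes in colour and dotted lines at 2-fold. MYOCD lies at 5.93 and the other 6 genes lie inside the dotted lines, from -0.21 to 0.61.

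By level, the order in WT was MKL1, ELK3, MKL2, ELK1, ELK4, SRF and MYOCD, and in the MYOCD library it was MYOCD, MKL1, ELK3, MKL2, ELK1, ELK4 and SRF. Leaving out MYOCD, the order was the same in both libraries. The highest of these 6 genes exceeded the lowest by 2.50 times in WT and 3.07 times in MYOCD. With 1 library per group, neighbours in this order could not be tested against a spread between replicates.

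Likeness was measured as the distance between genes over the 2 libraries in log2(RPKM + 0.5). MYOCD had no close match. The 3 nearest protein-coding genes were PRRT2 (0.556 RPKM in WT against 14.2 in MYOCD, distance 1.78), NPNT (0.910 and 15.03, distance 1.85) and CDH2 (2.76 and 24.3, distance 2.25). MYOCD, NPNT, PRRT2 and POU6F1 (0.955 and 10.8 RPKM) were the 4 protein-coding genes that stood under 1 RPKM in WT and at 10 RPKM or more in MYOCD. The other 6 genes had from 107 (ELK3) to 517 (ELK1) protein-coding genes within a distance of 0.25. The nearest were PPP1R16A for MKL1 (distance 0.00760), NBEAL2 for MKL2 (0.00609), STAG1 for SRF (0.0110), DLG5 for ELK1 (0.00343), CAPN15 for ELK3 (0.0292) and AFF1 for ELK4 (0.00606). Over 2 points such likeness says only that level and change were close.

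The ETS family, to which the ternary complex factors belong, was read as a whole. Of 28 ETS genes 18 were counted, 10 of these above 0 and 8 below, with a median log2 change of 0.03. The 2 called, 1 in each direction, are 11.1% of those counted, against 11.8% of all genes counted and 6.11% of protein-coding genes. ETS2, a regulator downstream of growth factor signalling, was called higher, at 10.4 RPKM in WT against 30.3 in MYOCD. The epithelial ETS gene ELF3 was called lower, at 122.9 and 55.96 RPKM, and the repressor gene ERF stood at 83.1 and 90.2. ELK3, ELK1 and ELK4 had ranks 4, 5 and 6 of the family in WT. In MYOCD the rank of ELK3 was 3, that of ELK1 was 6 and that of ELK4 was 9.

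**Figure D4:**
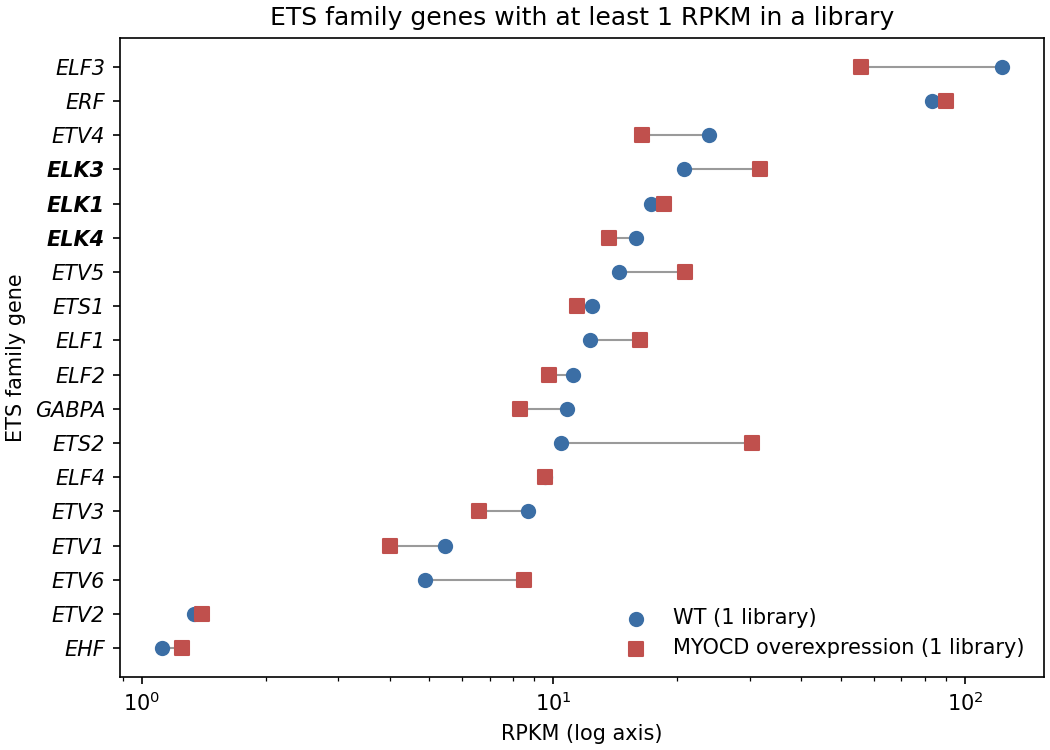
RPKM (log axis) of the 18 ETS family genes with at least 1 RPKM in a library, in WT (circles) and MYOCD (squares), ordered by their WT level, with the ternary complex factors in bold. ELK3 lies at 20.8 and 31.9 RPKM, ELK1 at 17.2 and 18.5 and ELK4 at 15.9 and 13.6.

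The list of Ras and ERK input to the ternary complex factors has 20 genes. It includes MAPK8, MAPK9 and MAPK14, which encode kinases related to ERK. All 20 were counted and 0 were called, with 10 above 0, 10 below and a median of 0.01. With 6.11% of protein-coding genes called, 0 of 20 is not far from the background. The adaptor genes SHC1 (123.9 and 114.8 RPKM) and GRB2 (69.4 and 68.5) and the kinase gene MAP2K2 (100.8 and 99.3) were the most abundant of these. Transcript levels do not measure the activity of the pathway.

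Of 32 cofactors and restraints of the SRF complexes 28 were counted, 2 were called higher and 0 lower, and the median was 0.04. The called share of 7.14% is near the 6.11% of protein-coding genes. NKX2-5, a cardiac homeobox factor, stood at 3.19 RPKM in WT against 8.77 in MYOCD. HDAC4, a deacetylase that represses MEF2 and myocardin activity, stood at 7.13 and 16.6 RPKM. The most abundant were the arginine methyltransferase gene PRMT5 (155.1 and 261.9 RPKM), CSRP1 (154.5 and 222.8), which encodes a LIM protein of smooth muscle, and SMAD3 (126.1 and 107.4).

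Targets were read as 2 lists. In the list of actin and adhesion genes linked to the myocardin-related factors, 33 of 39 genes were counted, 28 above 0 and 5 below, with a median log2 change of 0.38. Called higher were TAGLN (2.34 RPKM in WT against 6.93 in MYOCD), a smooth muscle actin-binding protein gene, and PDLIM7 (20.5 and 52.7), and called lower was CTGF (32.7 and 14.1). The actin genes ACTG1 (4494 and 4837 RPKM) and ACTB (3268 and 3672) and the filamin gene FLNA (358.6 and 514.7) were its most abundant members. In the list of immediate early genes linked to the ternary complex factors, 15 of 20 were counted, 10 above 0 and 5 below, with a median of 0.11. FOS (4.67 and 1.02 RPKM) and ATF3 (6.13 and 2.14) were called lower and 0 were called higher. With a pseudocount of 0.1 RPKM FOSB (0.446 and 1.19 RPKM) was called higher, and with the reference genes set to 0 DUSP1 was. DUSP1, a phosphatase gene, stood at 66.1 and 125.2, MCL1 at 65.7 and 79.7 and IER3 at 61.1 and 65.8. Of the 12337 protein-coding genes counted 6225 lay above 0 and 6112 below, with a median of 0.00. Of the 2 lists, the called shares were 9.09% and 13.3%, and rest on 3 and 2 genes. The share was 11.8% of all genes counted and 6.11% of protein-coding genes counted. These lists rest on knowledge of SRF targets and were chosen with earlier results of these data known, so their counts are no independent evidence.

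**Figure D5:**
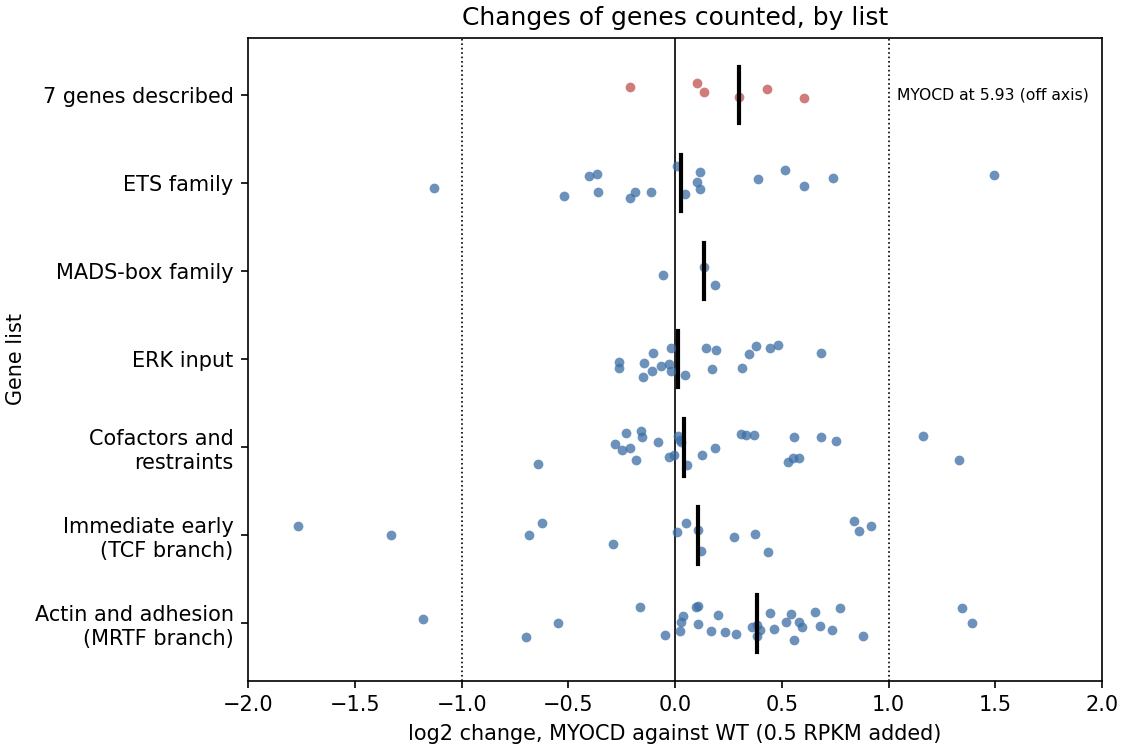
log2 change of MYOCD against WT for each gene counted, by list (1 point per gene, vertical scatter for display only), with the list median as a black bar, a line at 0 and dotted lines at 2-fold. The median is 0.38 for actin and adhesion genes and 0.11 for immediate early genes, and MYOCD at 5.93 lies off the axis.

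CArG boxes in the target lists are shown to set the motif of the SRF promoter beside genes with measured values. Of the 34 actin and adhesion genes with a window 13 held a box, and 10 of these 13 were counted. The stretches below are 30 bases each from the RefSeq windows on GRCh38.p14, in the direction of the gene, with the box in capitals.
ACTG1 (chr17:81512874-81512903, minus strand): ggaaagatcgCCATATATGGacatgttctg
CNN2 (chr19:1026509-1026538, plus strand): cgcctccaggCCTTATAAGGacatttgcgc
TPM4 (chr19:16067355-16067384, plus strand): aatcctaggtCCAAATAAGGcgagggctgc
FLNA (chrX:154374709-154374738, minus strand): ggcaattttaCCAATTAAGGctttctcgcc
FHL1 (chrX:136196911-136196940, plus strand): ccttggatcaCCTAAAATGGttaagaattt
FHL2 (chr2:105438595-105438624, minus strand): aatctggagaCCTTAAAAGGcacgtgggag
FHL2 (chr2:105399091-105399120, minus strand): gcgtgcatctCCTTATATGGtcaaatgaca
TGFB1I1 (chr16:31473144-31473173, plus strand): tggaggggagCCAAATTTGGcttgggtgaa
FILIP1L (chr3:99876214-99876243, minus strand): acgcggagcgCCTTATAAGGcagaacagtg
ACTN1 (chr14:68977718-68977747, minus strand): acgctcatgtCCAAAAATGGtaacattcat
SMTN (chr22:31084942-31084971, plus strand): cggggccgggCCATATAAGGaaaagctagg

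Of these 10 genes 9 lay above 0, and 0 were called. Of the 19 counted genes of the list with a window and no box, 15 lay above 0 and 2 were called. Among all 12337 protein-coding genes counted, 6225 lay above 0 and 6.11% were called. The calponin gene CNN2 stood at 62.0 RPKM in WT against 90.7 in MYOCD, the smoothelin gene SMTN at 12.1 and 18.2, and TGFB1I1, which encodes the focal adhesion protein Hic-5, at 7.82 and 13.7. FHL2, a LIM protein gene with a box before each of 2 starts, stood at 20.7 and 30.7 RPKM. Nearer their WT levels were the tropomyosin gene TPM4 (326.9 and 376.1 RPKM), the alpha-actinin gene ACTN1 (144 and 146.6) and FHL1 (17.9 and 18.1). FILIP1L was the 1 gene below 0, at 2.16 and 1.14. The median log2 change of the 10 was 0.36, and that of the 19 without a box was 0.38. The remaining 3 with a box, ACTG2, ACTC1 and ACTA1, were under 1 RPKM in both libraries. Of the 20 immediate early genes 14 had a window, and of these EGR1 and EGR2 were found to hold a box and were not counted. The search of the 2 lists left out windows on 1 chromosome, so a gene there was entered as having no box. The box counts of the 2 lists may therefore be too low. The counts across the table given next include that chromosome, so the searches differ.

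Across the table, 10757 genes counted had a window, and 150 of them, 1.39%, held a CArG box. Of these 150, 6 were called higher (4%) and 4 lower (2.67%), 84 lay above 0 and the median log2 change was 0.05. Of the 10607 genes with a window and no box, 2.77% were called higher and 3.13% lower, 50.1% lay above 0 and the median was 0.00. The called genes with a box that were highest were FOXP1 (4.65 RPKM in WT against 27.2 in MYOCD), a forkhead repressor gene, DMD (0.101 and 2.48), the dystrophin gene, and ST6GAL2 (1.42 and 7.16), followed by ITGB6 (2.34 and 10.6), RP11-138J23.1 (0.292 and 1.34) and INAFM2 (0.928 and 2.65). The 4 called lower were AQP3 (5.75 and 1.57), a water and glycerol channel gene, the complement gene C5 (20.95 and 6.83), GDPD5 (8.01 and 2.86) and MYLK (37.8 and 18.0), the myosin light chain kinase gene of smooth muscle. They were chosen after their values were seen. Boxes further from a start than 250 bases were not searched.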

How the data were processed

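RNA of A549 cells was profiled in 1 library of wild-type cells and 1 of cells overexpressing MYOCD. Per the labels' protocols, Trizol was used to isolate total RNA, which an Illumina TruSeq kit turned into libraries. The deposited values are RPKM, per the file headers, in which a key defines 1 column as WT and the other as MYOCD. The submitters' processing notes list Bowtie 0.12.2, mm8 (a mouse assembly) and GRCh38.p12 without a role for any. The sources used here do not state the counting tool, the gene models or the use of strand.

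The table has 57979 rows. For 248 symbols on several rows the row with the highest mean was used. Gene types, positions and exon unions came from GENCODE 29 on GRCh38, which held 57375 of the identifiers. Table symbols were matched through Ensembl identifiers to RefSeq promoter windows (18915 symbols). A search for the step that 1 read makes placed 17.7% (WT) and 28.8% (MYOCD) of low values within 0.1 of a whole number. For a step fixed beforehand chance gives 20%. The best of many steps was taken, so 20% is not the chance value of this search. It used GENCODE exon unions, which may differ from the authors' lengths, so it cannot tell whether such steps exist. Reads were not recovered and no count test was run. No p-value was computed. The arithmetic was tested on WT values given set fold changes without noise. That checks the code and not the reliability of calls from 1 library per group. The genes and lists were chosen with earlier results of these data known. A list of genes is not reported here. Named genes were the 7, in each list those at or beyond 2-fold (up to 6) and the 3 most abundant, the nearest by likeness (3 for MYOCD, 1 for the others) and the genes beside MYOCD. The groups defined by CArG boxes were added after the data were seen, and the genes named for a box, the marker genes and POU6F1 were chosen outside that rule with their values seen. The alternatives were other pseudocounts, filters and scalings, protein-coding genes alone and summed rows. Analysis used Python 3.11.15 with pandas 2.3.3, numpy 2.4.6 and matplotlib 3.10.9.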

Additional observations from a re-analysis of the deposited data

How the results depend on the processing

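Under all 11 alternatives 1 of the 7 genes, MYOCD, was called, and each of the 7 kept its direction. From 8 to 10 of the 164 other list genes were called, against 9. The 164 include genes under the filter and the list not reported here, so 9 of 164 is not a share of genes counted. As reported, 11.8% of all genes counted and 6.11% of protein-coding genes counted were called. The filters, protein-coding genes alone and summed rows cannot alter the log2 changes of the 7 genes. A pseudocount cannot alter their direction, so for direction only the scalings were a check. The log2 change of MYOCD ranged from 5.25 to 6.92, that of ELK3 from 0.59 to 0.69, that of SRF from 0.13 to 0.22 and that of ELK4 from -0.22 to -0.13. The shares within the coactivators and the ternary complex factors are ratios within 1 library, which these choices cannot change. The gene lengths behind RPKM, on which the shares do depend, were not varied. The 2042 genes called in all (940 higher, 1102 lower) became 960 (450 and 510) with at least 5 RPKM in a library and 754 (372 and 382) among protein-coding genes alone, where the called share was 6.11% against 11.8%. The cause was not tested. The immediate early genes had 1 called gene with at least 5 RPKM in a library, where FOS is not counted. They had 3 with a pseudocount of 0.1 RPKM, where FOSB was called higher (1.24), and 3 with the reference genes set to 0, where DUSP1 was called higher (1.00). The median of the ETS family was 0 or below under 2 alternatives (lowest -0.05), and that of genes with a CArG box was 0 without a filter. No paired analysis was possible because each group has 1 library. For the same reason no library could be left out, and with depth unknown the 0.304 RPKM of MYOCD in WT has no counting interval.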
